A study of Mus musculus with 15 samples.

Results

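The genes described here were 10 regulators of the hair shaft and of the hair matrix, namely *Hoxc13*, *Foxn1*, *Msx1*, *Msx2*, *Dlx3*, *Lef1*, *Shh*, *Bmp4*, *Ovol1* and *Gata3*. They were taken by exact gene symbol from the 21110 genes measured in each library, and all 10 symbols were found. RNA-Seq expression was given as FPKM, fragments scaled to the length of the gene and to the mapped reads, for 15 mouse ear libraries. The groups were wild type mice at 2 weeks of age (n = 4), keratin 5-specific *Socs3* conditional knockout mice at 2 weeks (labelled cKO, n = 4), wild type mice at 10 weeks (n = 3) and cKO mice at 10 weeks (n = 4). All mice had a C57BL/6 background, and the deletion was driven in keratin 5-positive cells, the basal keratinocytes of the epidermis and its appendages. Each library came from a separate sample, but the labels do not say whether littermates were used or whether the samples were collected together, and the library numbers of the 4 groups run in separate ranges, so that a library batch and a group cannot be told apart.

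The hair matrix is the dividing population at the base of a growing follicle, and its descendants become the hair shaft, packed with hair keratins and keratin-associated proteins, and the inner root sheath that guides the shaft. Wnt signals acting through LEF1, Hedgehog signals from SHH and BMP signals set the fate of these cells, and HOXC13, FOXN1, MSX2, DLX3 and GATA3 act in them as transcription factors. In mice, follicles grow soon after birth and later pass through repeated phases of regression, rest and growth.

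*Socs3* itself did not follow the labels at both ages. At 2 weeks the wild type mice had 9.71 to 10.3 FPKM and the cKO-labelled mice 1.25 to 12.6. At 10 weeks the wild type mice had 2.02 to 4.81 and the cKO-labelled mice 29.8 to 47.7, so the gene was higher in the mice labelled as lacking it in keratin 5-positive cells. An FPKM over the whole gene in ear tissue also counts cells without keratin 5, so it does not check the deletion, and every direction below is between labels. The label gives the material as keratinocytes and the methods as ear tissue. The 8 genes of the interfollicular epidermis summed to 10974 to 21988 FPKM, and 7 skeletal muscle genes were also present at 452 to 3611 FPKM. Summed FPKM over all genes was 436293 to 671904 per library. Between 1414 and 3176 genes were listed at 0 in the 10-week wild type libraries, and between 4044 and 4423 in all others. The number of reads behind each value is unknown.

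Promoters are shown first, for the paralogs *Msx1* and *Msx2* and for *Foxn1* and *Lef1*, on which results below turn, beside those of the hair keratin genes *Krt31* and *Krt34*, structural genes of the shaft. RefSeq promoter sequences (assembly GRCm38.p6, a later build than mm9) were found for 6 of the 10 regulators: *Foxn1*, *Msx1*, *Msx2*, *Lef1*, *Bmp4* and *Gata3*. *Hoxc13*, *Dlx3*, *Shh* and *Ovol1* are named only. The 250 bases before the start are printed 5′ to 3′ on the strand of the gene. Capitals mark matches on either strand to the LEF/TCF letters CTTTGA or CTTTGT, or to the TATA box letters TATAAA. The MSX/DLX letters TAATTG and the GATA letters AGATAA were searched as well. The sequences are at chr5:37824586-37824835 (*Msx1*, minus strand), chr13:53472781-53473030 (*Msx2*, minus strand), chr11:78386609-78386858 (*Foxn1*, minus strand), chr3:131156044-131156293 (*Lef1*, plus strand, the most downstream of its 4 starts), chr11:100050552-100050801 (*Krt31*, minus strand) and chr11:100041555-100041804 (*Krt34*, minus strand).
Msx1: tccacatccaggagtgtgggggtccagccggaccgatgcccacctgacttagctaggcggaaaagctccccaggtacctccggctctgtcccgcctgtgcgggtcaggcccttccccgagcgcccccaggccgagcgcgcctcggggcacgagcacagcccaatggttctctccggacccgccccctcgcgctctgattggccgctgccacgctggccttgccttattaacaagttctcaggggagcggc
Msx2: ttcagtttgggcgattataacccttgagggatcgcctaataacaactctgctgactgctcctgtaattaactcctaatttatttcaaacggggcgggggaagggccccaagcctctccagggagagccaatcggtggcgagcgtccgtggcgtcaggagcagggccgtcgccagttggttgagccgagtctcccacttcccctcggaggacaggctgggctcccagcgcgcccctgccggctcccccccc
Foxn1: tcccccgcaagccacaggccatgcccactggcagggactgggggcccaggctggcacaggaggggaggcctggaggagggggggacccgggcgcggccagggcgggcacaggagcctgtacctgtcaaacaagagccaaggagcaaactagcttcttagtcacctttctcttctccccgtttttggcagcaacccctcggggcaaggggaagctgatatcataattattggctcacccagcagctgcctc
Lef1: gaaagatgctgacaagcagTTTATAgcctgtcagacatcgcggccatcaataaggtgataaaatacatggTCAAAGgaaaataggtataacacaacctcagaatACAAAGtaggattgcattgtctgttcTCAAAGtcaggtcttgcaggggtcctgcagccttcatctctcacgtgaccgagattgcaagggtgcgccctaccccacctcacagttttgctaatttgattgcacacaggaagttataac
Krt31: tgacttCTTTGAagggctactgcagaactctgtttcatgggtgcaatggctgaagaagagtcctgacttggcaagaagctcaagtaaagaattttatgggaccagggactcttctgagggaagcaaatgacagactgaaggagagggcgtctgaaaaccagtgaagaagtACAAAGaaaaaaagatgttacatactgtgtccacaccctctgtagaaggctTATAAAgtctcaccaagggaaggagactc
Krt34: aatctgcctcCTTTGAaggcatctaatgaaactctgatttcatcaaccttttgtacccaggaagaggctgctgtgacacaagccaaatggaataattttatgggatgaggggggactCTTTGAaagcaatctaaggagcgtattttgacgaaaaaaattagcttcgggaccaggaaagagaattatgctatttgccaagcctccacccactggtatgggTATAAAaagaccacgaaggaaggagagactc

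At the first listed start, none of the 6 regulators held any of the 4 patterns, and their median GC content was 64.8%. The downstream *Lef1* start held 3 LEF/TCF matches, at 180, 146 and 120 bases before the start, and a TATA box match at 231 bases. *Krt31* held 2 LEF/TCF matches, at 244 and 80 bases, and *Krt34* held 2 at 240 and 133 bases. Both keratin genes had a TATA box match, 29 bases before the start in *Krt31* and 31 bases in *Krt34*. None of the matches printed here overlap each other. The *Msx1* and *Msx2* sequences held no match, which says only that these letters are not in these windows. Among 10 hair shaft genes with a sequence, 6 (60%) held a LEF/TCF match and 6 a TATA box match, at a median GC content of 43.4%. Among 51 *Krtap* genes, the share was 47.1% for LEF/TCF, 29.4% for MSX/DLX, 21.6% for GATA and 80.4% for the TATA box, at a median GC content of 40.4%. Over all 27025 promoters of this length, at a median GC content of 52%, the shares were 27.7%, 7.34%, 10.3% and 13%. A match is a description of the letters and not a binding site, and the FPKM does not tell which start was used.

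In the wild type at 2 weeks all 10 regulators were expressed. *Dlx3* had the highest mean FPKM of the 10 (45.1 ± 4.88, SD, n = 4), followed by *Gata3* (33.9 ± 1.75), *Ovol1* (25.3 ± 2.09), *Hoxc13* (24.4 ± 2.62), *Msx2* and *Msx1* (18 ± 2.24), *Bmp4* (12.9 ± 1.19), *Foxn1* (11.1 ± 1.06), *Lef1* (5.45 ± 0.934) and *Shh* (1.11 ± 0.204). FPKM is scaled to gene length, so these levels can be set side by side roughly. No length or GC trend was removed from them. The ranges over mice overlapped between *Ovol1* and *Hoxc13*, between *Hoxc13* and *Msx2*, between *Msx2* and *Msx1* and between *Bmp4* and *Foxn1*, and the other neighbours in this order did not overlap. In the cKO-labelled mice at 2 weeks the order began with *Ovol1* (24 ± 1.84), *Gata3* (14.2 ± 7.1) and *Msx1* (12.6 ± 6.92). *Dlx3* stood at 4.56 ± 1.93, *Hoxc13* at 1.56 ± 0.553 and *Foxn1* at 1.48 ± 1. Every neighbouring pair in that order overlapped except *Lef1* and *Shh*. At 10 weeks the order began with *Gata3* (41 ± 6.85), *Msx1* (15 ± 2.78) and *Ovol1* (10.6 ± 4.01) in the wild type (SD, n = 3), where *Msx1* and *Ovol1* overlapped. In the cKO-labelled mice of that age it began with *Ovol1* (23.5 ± 6.29), *Msx1* (14.8 ± 2.36) and *Gata3* (12.7 ± 5.04), and these overlapped (SD, n = 4).

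**Figure D1:**
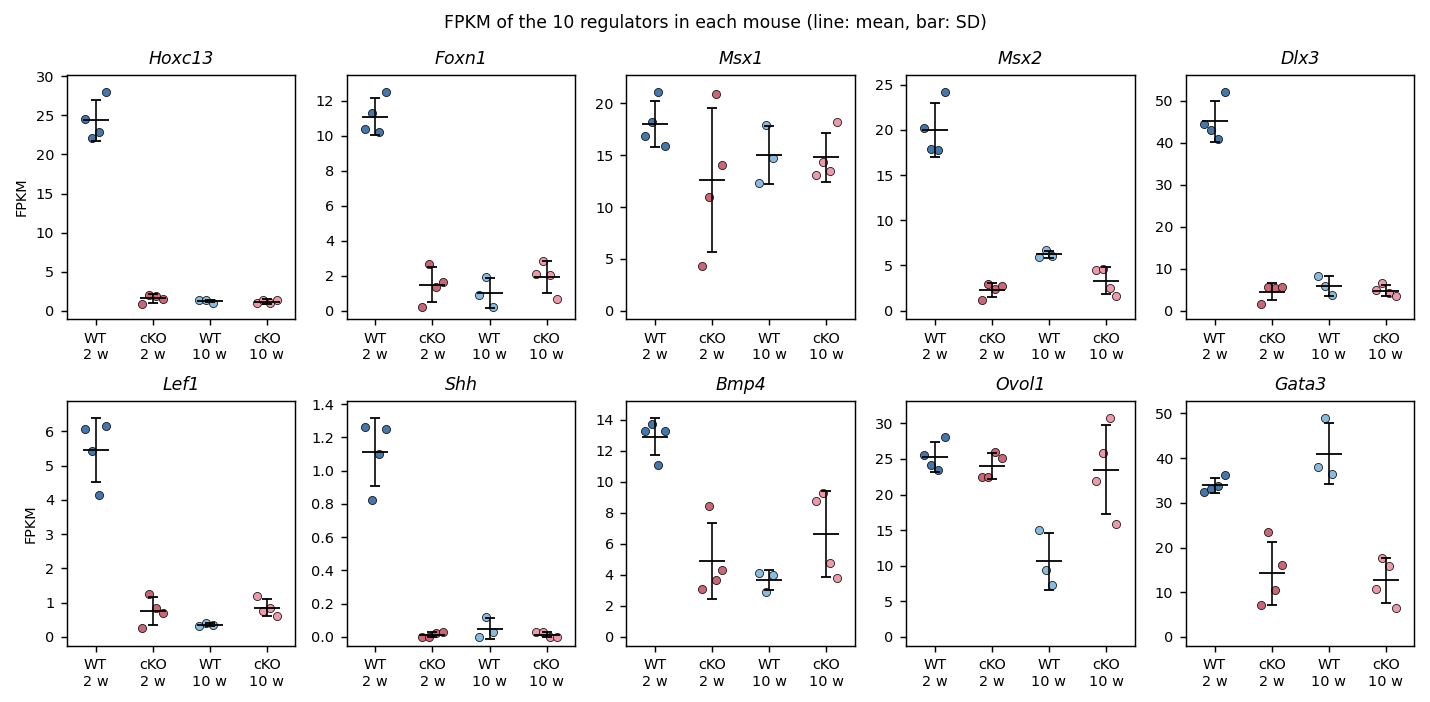
FPKM (y axis, linear, 1 panel per gene with its own scale) of the 10 regulators in each mouse (points), with the group mean (line) and SD (bar), for the wild type (WT) and cKO-labelled mice at 2 and 10 weeks (w). For *Hoxc13* the 4 wild type mice at 2 weeks sit at 22.1 to 28 and the other 11 mice at 0.813 to 2.03, whereas *Ovol1* is low in the wild type at 10 weeks (7.27 to 15) and *Gata3* is low in both cKO-labelled groups (6.58 to 23.4).

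The first comparison asked how these regulators differed between cKO-labelled and wild type mice at 2 weeks. 7 of the 10 regulators were called lower in the cKO-labelled mice, and 0 were called higher. The 7 were *Shh* and *Bmp4* among the ligands, the Wnt effector *Lef1*, the homeobox genes *Hoxc13*, *Msx2* and *Dlx3*, and the forkhead gene *Foxn1*. *Gata3* lay below the wild type in all 4 mice without passing the test, and *Msx1* and *Ovol1* overlapped with the wild type. A gene was called when the limma test on log2(FPKM + 0.1) gave an adjusted p under 0.01 (Benjamini-Hochberg over 13524 genes) and the log2 fold change (log2 FC) was at least 1 in size. By that rule 14.4% of all genes tested were called, 7.19% lower and 7.24% higher. The groups did not overlap for 8 regulators, against 56.1% of all genes tested, 33.2% lower and 22.9% higher. The median log2 FC was -2.96 over the regulators and -0.21 over all genes. *Shh* and *Lef1* had passed the expression filter only through the wild type. In ear tissue, fewer cells of a type and less RNA per cell cannot be told apart.

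*Shh* (chromosome 5 of mm9, 28783355 to 28793641) encodes the secreted Hedgehog ligand of the matrix. The wild type mice had an FPKM of 1.26, 0.824, 1.1 and 1.25, and in the cKO-labelled mice it was listed at 0 in 2 mice and at 0.0242 and 0.0271 in the others. The groups were far apart, and all 4 values of the cKO-labelled mice were close to 0. The log2 FC was -3.42 (SE 0.22, adjusted p = 5.54e-05, limma), a value set by the pseudocount: with pseudocounts of 0.01 and 1 it was -5.87 and -1.05, and with quantile normalization -2.71. *Shh* had an FPKM of at least 1 in 3 wild type mice, so without replicate 1, 3 or 4 of the wild type it did not pass the filter and was not tested.

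*Bmp4* (chromosome 14, 47003195 to 47010344) encodes a BMP ligand made by the dermal papilla and by differentiating shaft cells. The wild type had an FPKM of 13.3, 13.7, 11.1 and 13.3, and the cKO-labelled mice 3.11, 8.46, 3.7 and 4.32. The groups did not overlap, and replicate 2 of the cKO-labelled mice lay nearest to the wild type. The log2 FC was -1.48 (SE 0.29, adjusted p = 0.00612, limma). *Lef1* (chromosome 3, 130813389 to 130927274) encodes the DNA-binding partner of β-catenin. The 4 wild type mice had 6.08, 5.43, 4.14 and 6.15, and the 4 cKO-labelled mice 0.268, 1.26, 0.845 and 0.699. The difference was 7-fold (log2 FC -2.81, SE 0.38, adjusted p = 0.00116, limma), with no overlap, or 3.71-fold with a pseudocount of 1, 4.63-fold with quantile normalization and 4.66-fold with the length and GC trend removed.

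*Hoxc13* (chromosome 15, 102751534 to 102759245) encodes a homeobox factor that activates hair keratin genes. Wild type mice had an FPKM of 24.6, 22.1, 22.9 and 28, and cKO-labelled mice 0.813, 2.03, 1.92 and 1.49. This was a 15.4-fold difference (log2 FC -3.95, SE 0.27, adjusted p = 6.48e-05, limma), and 136 of the 13524 genes had a log2 FC as low or lower. It was 9.92-fold with the length and GC trend removed and 10.1-fold with a pseudocount of 1. *Dlx3* (chromosome 11, 94981403 to 94986610), a homeobox gene needed for hair formation, had an FPKM of 44.4, 43, 40.8 and 52.1 against 1.68, 5.68, 5.33 and 5.57. The difference was 10.7-fold (log2 FC -3.42, SE 0.37, adjusted p = 0.000404, limma), or 5.5-fold with the length and GC trend removed, and replicate 1 of the cKO-labelled mice stood below the other 3. *Foxn1* (chromosome 11, 78171079 to 78200060), the forkhead gene mutated in nude mice, had an FPKM of 10.4, 11.3, 10.2 and 12.5 against 0.233, 2.68, 1.37 and 1.63. Its log2 FC was -3.17 (SE 0.57, adjusted p = 0.00425, limma), or -2.54 without replicate 1 of the cKO-labelled mice, -2.39 with a pseudocount of 1 and -2.06 with the length and GC trend removed. The calls for *Foxn1* and *Bmp4* were lost when any 1 of the 4 wild type mice or replicate 3 or 4 of the cKO-labelled mice was left out, with adjusted p of 0.0108 to 0.0165 for *Foxn1* and 0.0175 to 0.0233 for *Bmp4*, and over all fits with a mouse left out the log2 FC ran from -3.56 to -2.54 and from -1.77 to -1.30.

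The paralogs *Msx1* and *Msx2* differed in their values. *Msx2* (chromosome 13, 53562250 to 53568443), a homeobox gene of the matrix and the differentiating shaft, had an FPKM of 20.2, 17.9, 17.8 and 24.2 in wild type mice, against 1.22, 2.97, 2.37 and 2.71 in cKO-labelled mice. It was 8.68-fold lower (log2 FC -3.12, SE 0.27, adjusted p = 0.000159, limma). *Msx1* (chromosome 5, 38211724 to 38215822), its close paralog, had an FPKM of 16.9, 18.2, 21.1 and 15.9 against 4.27, 11, 20.9 and 14.1. The groups overlapped and the spread over the cKO-labelled mice was wide, with a log2 FC of -0.72 (95% interval -1.68 to 0.25, adjusted p = 0.181, limma) that was 0.15 once the length and GC trend was removed. The ratio of *Msx2* to *Msx1* within a mouse does not depend on scaling, and was chosen after the values were seen. On the log2 scale it was 0.15 ± 0.36 in the wild type and -2.25 ± 0.62 in the cKO-labelled mice (SD, n = 4 each), a difference of -2.40 (exact permutation test, 2-sided, p = 0.029, the smallest p that 4 against 4 allows).

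The zinc finger genes *Ovol1* and *Gata3* did not pass the test. *Ovol1* (chromosome 19, 5549137 to 5560575) encodes a repressor of differentiating epidermal and hair cells. Wild type mice had 25.6, 24.1, 23.4 and 28.1, and cKO-labelled mice 22.4, 22.5, 26 and 25.1. The log2 FC was -0.08 with a 95% interval of -0.36 to 0.21 (adjusted p = 0.621, limma), and it was 0.13, 0.02 and 0.61 with median-of-ratios scaling, quantile normalization and the length and GC trend removed. The log2 ratio of *Ovol1* to *Dlx3* within a mouse, also chosen after the values were seen, was -0.83 ± 0.04 in the wild type and 2.51 ± 0.78 in the cKO-labelled mice (SD, n = 4 each, exact permutation test, 2-sided, p = 0.029). *Gata3* (chromosome 2, 9778705 to 9811661) encodes a factor of the inner root sheath and the epidermis, and is also expressed in T cells. It had an FPKM of 32.4, 33, 33.8 and 36.3 against 7.17, 23.4, 10.4 and 16.1. The log2 FC was -1.38 (SE 0.33, adjusted p = 0.0119, limma), just outside the threshold. It was called under 5 of the 10 other settings, namely a pseudocount of 1, median-of-ratios scaling, quantile normalization, all 4 groups in 1 fit and the length and GC trend removed (log2 FC -1.38 to -1.02, adjusted p 0.00345 to 0.00852). Without replicate 1 of the cKO-labelled mice the adjusted p of *Gata3* was 0.00371 (log2 FC -1.10), and without replicate 2 it was 0.00185 (log2 FC -1.66). The 9 T cell genes summed to 23.2 to 33 FPKM in wild type mice, against 40.4 to 64.6 in cKO-labelled mice, while 1 of the 8 T cell genes tested, *Cd4*, was called lower and 3 higher.

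Among the cKO-labelled mice at 2 weeks, replicate 1 had the lowest or tied lowest value for all 10 regulators and replicate 2 the highest for 7. Replicate 1 also had the lowest *Socs3* FPKM of its group, 1.25. Yet its summed FPKM was the highest of its group for the hair shaft genes (41.9, against 19 to 37.7) and the *Krtap* genes (228, against 34.7 to 126). The hair shaft sum rests largely on *Krt84*, at 9.02 to 27.4 FPKM in these mice (mean 16.2), a gene that was not called. Without this mouse 8 regulators were called lower, since *Gata3* was added. Leaving out any single mouse gave 4 to 8 regulators called, with 4 each when replicate 1, 3 or 4 of the wild type was left out. *Hoxc13*, *Msx2*, *Dlx3* and *Lef1* were called in each of these fits.

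**Figure D2:**
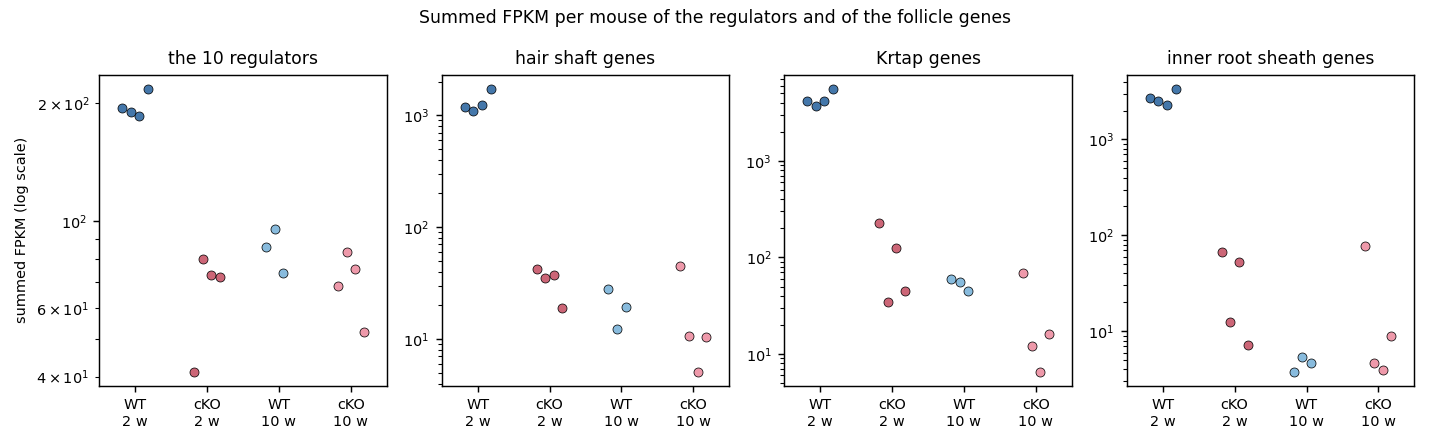
Summed FPKM per mouse (y axis, log scale; each point a mouse) of the 10 regulators, the hair shaft genes, the *Krtap* genes and the inner root sheath genes in wild type (WT) and cKO-labelled mice at 2 and 10 weeks (w). The 4 wild type mice at 2 weeks stand above all others in each panel, at 186 to 218 for the regulators against 41.2 to 95.3 in the other 11 mice, and at 1094 to 1728 for the hair shaft genes against 5.12 to 45.2.

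The genes that mark the shaft and the inner root sheath also lay lower in the cKO-labelled mice at 2 weeks. Of 16 hair shaft genes, hair keratins for the most part, 15 were called lower at 2 weeks (median log2 FC -6.79). *Krt81* and *Krt83* had the lowest log2 FC, -7.93 and -7.89, and *Krt84*, a hair keratin that the tongue also expresses, was the exception with a log2 FC of -0.59 (adjusted p = 0.192, limma). All 46 *Krtap* genes tested were called lower (median -6.01), from *Krtap16-4* at -8.12 to *Krtap3-2* at -2.51. All 8 inner root sheath genes were called lower (median -6.60), from *Krt71* at -7.28 to *Krt74* at -5.80. Of these, 13 hair shaft, 37 *Krtap* and 3 inner root sheath genes passed the filter through the wild type alone. Their summed FPKM in the cKO-labelled mice was 19 to 41.9 for the shaft, 34.7 to 228 for *Krtap* and 7.18 to 66.4 for the inner root sheath, against 1094 to 1728, 3722 to 5597 and 2278 to 3382 in the wild type. Several of these families hold near-identical members, so the share of each gene in its family's reads is uncertain.

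Around *Shh*, 4 of the 13 Hedgehog pathway genes tested were called lower and 0 higher at 2 weeks (median log2 FC -1.19). The transcription factor gene *Gli2* had a log2 FC of -2.53 (SE 0.40, adjusted p = 0.00252, limma). The receptor gene *Ptch1* stood at -0.43 and *Gli3* at -0.42, and neither was called. Around *Bmp4*, 2 of 21 BMP pathway genes were called lower and 1 higher (median -0.88). The higher gene was the type II receptor *Bmpr2* (log2 FC 1.59, SE 0.21, adjusted p = 0.00106, limma). The inhibitory SMAD genes had the lowest values of this list, -2.31 for *Smad6* and -1.91 for *Smad7*, without being called (adjusted p = 0.0187 and 0.0113, limma). *Bmpr1a*, a type I receptor, was at 0.67. Around *Lef1*, 4 of 15 Wnt pathway genes and *Lef1* partners were called lower and 0 higher (median -1.37). The ligand gene *Wnt11* was called at -2.61, whereas the *Lef1* relative *Tcf7l1* at -2.88 was not (adjusted p = 0.0111, limma). *Ctnnb1*, the gene of β-catenin, stood at -0.48 and the receptor gene *Edar* at -0.47. Among paralogs of the regulators 3 of 10 were called lower and 0 higher (median -0.94). *Dlx2* and *Dlx1* were among them, with a log2 FC of -3.41 and -3.17. *Foxn3* and *Foxn2*, forkhead relatives of *Foxn1*, were at 2.16 (adjusted p = 0.0429, limma) and 0.20.

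**Figure D3:**
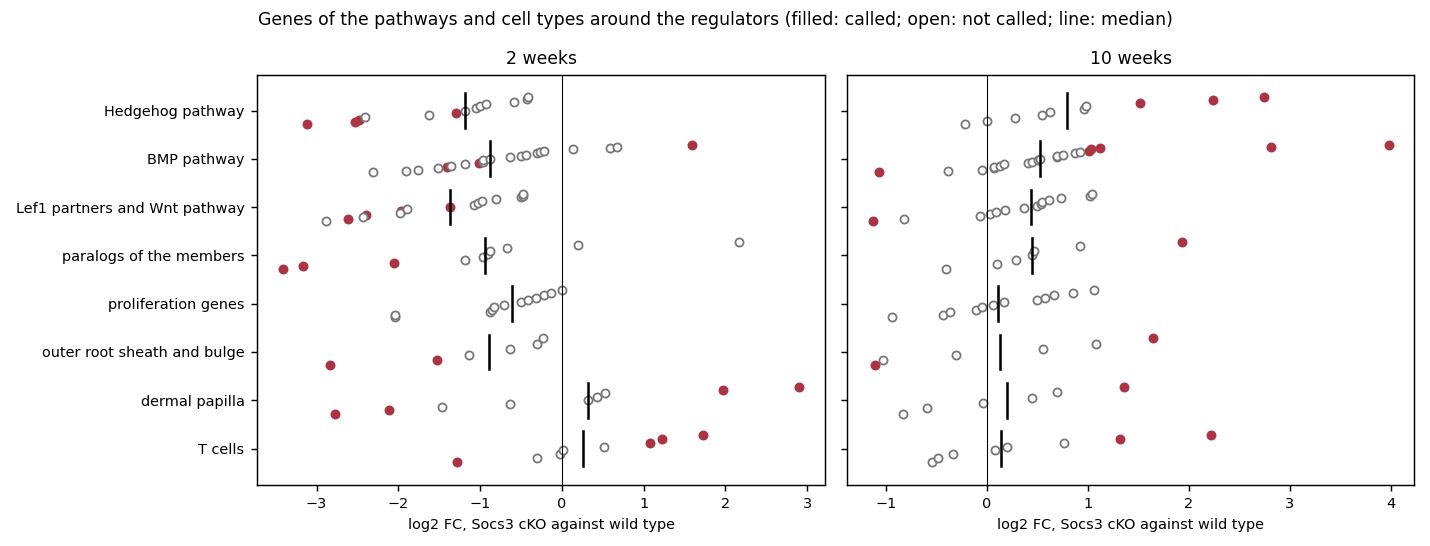
log2 FC between cKO-labelled and wild type mice (x axis) of each tested gene (points; filled, called; open, not called) in 8 gene lists around the regulators at 2 weeks (left) and 10 weeks (right), with the list's median as a vertical line. The Hedgehog median is -1.19 at 2 weeks and 0.80 at 10 weeks, and that of the Wnt list -1.37 and 0.43, beside medians of -0.21 and 0.31 over all genes tested.

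Marker genes of other cell types were counted by the same rule at 2 weeks. 0 of 12 proliferation genes were called by limma (6 at an unadjusted p under 0.05, median log2 FC -0.60), with *Aurkb* and *Plk1* at -2.04 each, *Ccnb1* at -0.13 and *Top2a* at 0.00. In the outer root sheath and bulge list 2 of 6 genes were called lower, *Lhx2* (-2.84) and *Sox9* (-1.53), while *Cd34* was at -0.23 and *Lgr6* at -0.30. Of 9 dermal papilla genes, 2 were called lower (*Alx4* -2.78, *Sox18* -2.11) and 2 higher (*Wif1* 2.90, *Corin* 1.97). Among 8 interfollicular epidermis genes *Krtdap* (2.04) and *Krt14* (1.02) were called higher and 0 lower, but 5 of the 8 had a negative log2 FC (median -0.21). The lowest were *Lor* (mean FPKM 379 against 663 in the wild type) and *Krt1* (544 against 851), neither called. The 8 genes summed to 17371 to 21414 FPKM against 11018 to 12306 in the wild type. *Krtdap* alone had a mean of 7183 against 1650. Among 8 T cell genes 3 were called higher and 1 lower, with *Trat1* at 1.73, *Cd3d* at 1.23, *Cd3e* at -0.31 and *Cd4* at -1.28. Of 6 fibroblast genes 3 were called lower and 1 higher (*Col1a1* -3.06, *Col1a2* -1.72, *Dcn* 1.24), and *Lum* was at 0.40. Of 7 skeletal muscle genes 5 were called higher, with *Myh1* at 2.19, *Tnni2* at 2.09, *Myh4* at 0.89 and *Acta1* at 0.18, and their sum was 1797 to 3611 FPKM against 703 to 1069. 0 of 5 melanocyte genes were called by limma (2 at an unadjusted p under 0.05), from *Slc45a2* at -0.92 to *Mlana* at 0.69. The part of these cell types in the values of the regulators was not tested.

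The second comparison was between cKO-labelled and wild type mice at 10 weeks. *Gata3* was lower in the cKO-labelled mice and was the 1 regulator called among 8 tested, while 14.9% of 13105 genes were called, 2.43% lower and 12.5% higher. That split depended on scaling: 83.7% of the calls were higher, against 62.9% with median-of-ratios scaling, 52.7% with quantile normalization and 58.6% with the length and GC trend removed. *Ovol1* lay higher and *Msx2* lower than in the wild type without passing the test. *Lef1* and *Shh* did not reach the expression filter at this age. The groups did not overlap for 4 of the 10 regulators, *Gata3*, *Ovol1*, *Msx2* and *Lef1*, against 42.3% of the genes tested, 11.1% lower and 31.2% higher. The median log2 FC of all genes was 0.31, so that each value below is to be read against it, and median-of-ratios scaling brought it to 0.06, as it brought the 2-week median to -0.01.

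*Gata3* had an FPKM of 37.9, 48.9 and 36.4 in the wild type at 10 weeks and 10.8, 17.7, 15.8 and 6.58 in the cKO-labelled mice. It was 3.4-fold lower (log2 FC -1.77, SE 0.31, adjusted p = 0.00306, limma). The call was lost without replicate 1 of the wild type (log2 FC -1.82, adjusted p = 0.0118) or replicate 3 (log2 FC -1.85, adjusted p = 0.0136). The sum of the T cell genes was 48.2 to 51.3 FPKM in wild type mice, against 51.6 to 73 in cKO-labelled mice. *Gata3* was thus low in both cKO-labelled groups, and the difference of its log2 FC between the ages was -0.39 (95% interval -1.44 to 0.67, not called).

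*Ovol1* had an FPKM of 15, 9.42 and 7.27 in the wild type at 10 weeks and 21.9, 25.8, 30.7 and 15.8 in the cKO-labelled mice. The groups did not overlap, though the highest wild type mouse and the lowest cKO-labelled mouse were close. Its log2 FC was 1.17 (SE 0.29, adjusted p = 0.012, limma). *Ovol1* passed the threshold without replicate 1 of the wild type (log2 FC 1.46, adjusted p = 0.00924) or replicate 4 of the cKO-labelled mice (log2 FC 1.35, adjusted p = 0.00709). *Msx2* had an FPKM of 5.98, 6.7 and 6.03 against 4.55, 4.57, 2.47 and 1.59, a log2 FC of -1.02 (SE 0.35, adjusted p = 0.045, limma). *Msx1* had an FPKM of 12.3, 17.9 and 14.7 against 13.1, 14.3, 13.5 and 18.2, with a log2 FC of -0.02 (95% interval -0.45 to 0.42). The log2 ratio of *Msx2* to *Msx1* was -1.24 ± 0.19 in the wild type (SD, n = 3) and -2.24 ± 0.89 in the cKO-labelled mice (SD, n = 4; exact permutation test, 2-sided, p = 0.057, the smallest p that 3 against 4 allows). The log2 ratio of *Ovol1* to *Dlx3* was 0.85 ± 0.14 and 2.27 ± 0.38 (n = 3 and 4, exact permutation test, 2-sided, p = 0.057).

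Of the other regulators, none that limma tested was called at 10 weeks. *Hoxc13* had an FPKM of 1.31, 1.3 and 1.02 against 0.952, 1.4, 0.92 and 1.39 (log2 FC -0.06, 95% interval -0.69 to 0.56). *Dlx3* had 8.18, 5.77 and 3.66 against 4.87, 6.58, 4.24 and 3.47 (log2 FC -0.25, 95% interval -0.94 to 0.43). *Foxn1* had 0.897, 1.91 and 0.187 against 2.08, 2.84, 2.05 and 0.661, with wide overlap (log2 FC 1.11, 95% interval -0.35 to 2.58). *Bmp4* had 4.1, 2.91 and 3.97 against 8.75, 9.28, 4.75 and 3.77, and replicates 1 and 2 of the cKO-labelled mice stood above all others. Its log2 FC was 0.76 (95% interval 0.01 to 1.50, adjusted p = 0.0972, limma). *Lef1* had 0.323, 0.408 and 0.354 against 1.21, 0.768, 0.856 and 0.599, so every cKO-labelled mouse lay above the wild type (difference of mean log2 values 1.02, exact permutation test, 2-sided, p = 0.057). *Shh* was listed at 0, 0.12 and 0.0276 against 0.0274, 0.0283, 0 and 0 (difference -0.32, exact permutation test, 2-sided, p = 0.514). Among the cKO-labelled mice at 10 weeks, replicate 4 had the lowest or tied lowest value for 8 of the 10 regulators and replicate 2 the highest for 7.

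The pathway genes at 10 weeks are to be read against the 12.5% of all genes called higher, the 2.43% called lower and the median log2 FC of 0.31. Of 10 Hedgehog pathway genes 3 were called higher and 0 lower (median log2 FC 0.80), among them *Ptch1* (2.75, SE 0.52, adjusted p = 0.0038, limma) and the pathway inhibitor gene *Sufu* (2.24, SE 0.31, adjusted p = 0.00102, limma), while *Gas1* stood at -0.21 and *Hhat* at 0.00. In the wild type *Ptch1* was at 0.118 to 0.725 FPKM and *Sufu* at 0.345 to 0.856. Both therefore entered the fit only through the cKO-labelled mice, in which they were high. Of 21 BMP pathway genes 5 were called higher and 1 lower (median 0.53). The BMP antagonist gene *Grem1* rose by 3.98 and *Bmpr2* by 2.82 on the log2 scale, while another antagonist gene, *Nog*, fell by 1.07 and *Id4* was at -0.38. *Grem1* too entered the fit only through the cKO-labelled mice. Its wild type values, 0.0986 to 0.642 FPKM, lay near the pseudocount of 0.1, on which the size of its log2 FC depends. Of 14 genes in the Wnt list 1 was called lower, *Tcf7l2* (-1.13, SE 0.24, adjusted p = 0.00651, limma), and 0 higher (median 0.43), with *Sp5* at -0.82, *Eda* at 1.04 and *Wnt10b* at 1.02. Of 7 paralogs *Foxn3* was called higher (1.93), while *Foxn2* was at 0.92, *Dlx6* at 0.10 and *Ovol2* at -0.40. Few follicle genes reached the filter: 0 of 2 hair shaft genes (*Krt32* -0.84, *S100a3* -0.66) and 0 of 2 inner root sheath genes (*Krt25* 1.04, *Tchh* 1.26) were called by limma, with 0 at an unadjusted p under 0.05. Of 3 *Krtap* genes 1 was called, *Krtap3-2* (-2.38), beside *Krtap3-1* at -1.58 and *Krtap3-3* at -1.44.

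In the other cell types at 10 weeks, 0 of 12 proliferation genes were called by limma (4 at an unadjusted p under 0.05), from *Birc5* at -0.94 to *Ccnb1* at 1.06. *Lor* was called lower (-2.62) among 8 interfollicular epidermis genes, *Sox9* lower (-1.11) and *Lgr6* higher (1.65) among 6 outer root sheath and bulge genes, and *Fgf7* higher (1.36) among 6 dermal papilla genes. *Trat1* (2.22) and *Cd4* (1.32) were called higher among 8 T cell genes (median 0.14). Of these 8, 3 had a negative log2 FC, with *Lat* at -0.54 and *Cd3d* at -0.48. *Pdgfra* was called higher (1.34) among 6 fibroblast genes, with *Col3a1* at 1.20, *Lum* at 0.45 and *Col1a2* at 0.20. *Tnni2* (-1.83) and *Mylpf* (-1.26) were called lower among 7 skeletal muscle genes, with *Acta1* at -0.91 and *Myh4* at 0.57. 0 of 5 melanocyte genes were called by limma (1 at an unadjusted p under 0.05).

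Whether the genotype difference itself changed with age was tested as an interaction in 1 fit over the 4 groups. For 8 regulators the log2 FC was called higher at 10 than at 2 weeks, and for 0 it was called lower. By the same rule 24.5% of 13937 genes were called, 18% higher and 6.55% lower. The split of all calls depended on scaling, with 73.3% higher here, 52.3% with median-of-ratios scaling, 45.4% with quantile normalization and 45.8% with the length and GC trend removed. *Lef1* and *Shh* reached the filter only through the wild type at 2 weeks, and on genes expressed at each age they were not tested and 6 regulators were called. The difference of the log2 FC was 4.28 for *Foxn1* (SE 0.95, adjusted p = 0.00329, limma), 3.88 for *Hoxc13* (SE 0.37), 3.83 for *Lef1* (SE 0.49), 3.16 for *Dlx3* (SE 0.52), 3.10 for *Shh* (SE 0.44), 2.23 for *Bmp4* (SE 0.47), 2.1 for *Msx2* (SE 0.47) and 1.25 for *Ovol1* (SE 0.33, adjusted p = 0.00771, limma). *Msx1* was at 0.70 (95% interval -0.39 to 1.79) and *Gata3* at -0.39 (95% interval -1.44 to 0.67), and neither was called. The *Ovol1* call was lost without any of 11 of the 15 mice (adjusted p 0.0117 to 0.0242), with median-of-ratios scaling (0.78), quantile normalization (0.82) and the length and GC trend removed (0.19, adjusted p = 0.687), and with a replicate block (adjusted p = 0.0143). The *Bmp4* call was lost with quantile normalization (1.44, adjusted p = 0.0116) and the *Shh* call with a pseudocount of 0.01 (4.96, adjusted p = 0.0157), while a pseudocount of 1 put *Shh* at 1.01, *Lef1* at 2.32 and *Foxn1* at 2.96. With the length and GC trend removed, *Foxn1* was at 2.89, *Hoxc13* at 2.97, *Lef1* at 2.74, *Shh* at 2.20 and *Dlx3* at 2.00, and with quantile normalization *Msx2* was at 1.39. *Foxn1* was at 3.65 without replicate 1 of the cKO-labelled mice at 2 weeks and at 4.92 without replicate 2 of the wild type at 10 weeks. Without replicate 3 of the wild type at 10 weeks 5 regulators were called, since *Foxn1* (3.52, adjusted p = 0.0112), *Msx2* (adjusted p = 0.0109) and *Ovol1* (adjusted p = 0.0242) were lost, and *Msx2* was lost as well without replicate 1 (adjusted p = 0.0109).

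**Figure D4:**
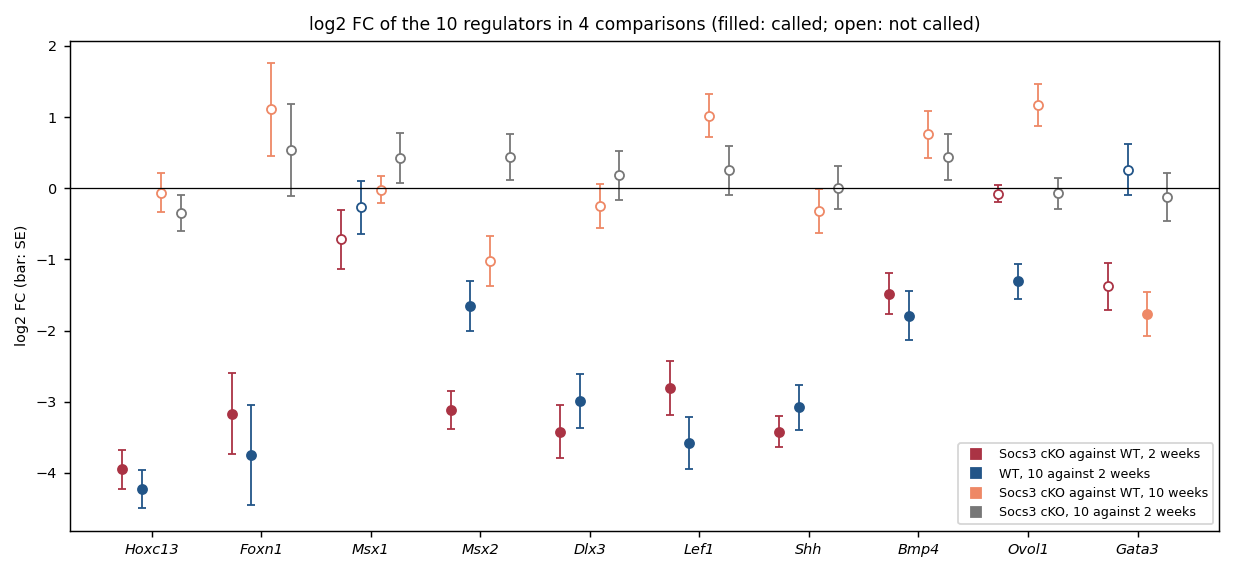
log2 FC (y axis; points, filled where called and open where not; bars, SE) of the 10 regulators in 4 comparisons: cKO-labelled against wild type at 2 and at 10 weeks, and 10 against 2 weeks within the wild type and within the cKO-labelled mice (*Lef1* and *Shh* at 10 weeks from a fit without the expression filter). *Hoxc13* is at -3.95 between genotypes at 2 weeks and at -4.23 between ages in the wild type, and no regulator is called between ages in the cKO-labelled mice.

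The last comparisons were between ages within each genotype. In the wild type 8 of the 10 regulators were called lower at 10 than at 2 weeks and 0 were called higher, where 25.5% of 13937 genes were called, 19.4% lower and 6.18% higher. Here too *Lef1* and *Shh* reached the filter only through the wild type at 2 weeks. Of all calls 24.2% were higher, against 47.1% with median-of-ratios scaling, 52.2% with quantile normalization and 49.8% with the length and GC trend removed. The median log2 FC was -2.39 over the regulators and -0.44 over all genes. The log2 FC was -4.23 for *Hoxc13* (SE 0.27, adjusted p = 1.39e-07, limma), -3.75 for *Foxn1* (SE 0.70), -3.58 for *Lef1* (SE 0.36), -3.08 for *Shh* (SE 0.32), -2.99 for *Dlx3* (SE 0.38), -1.79 for *Bmp4* (SE 0.34), -1.66 for *Msx2* (SE 0.35) and -1.31 for *Ovol1* (SE 0.24). The *Ovol1* call was lost with median-of-ratios scaling (-0.92), quantile normalization (-0.92) and the length and GC trend removed (-0.48). With the length and GC trend removed, *Hoxc13* was at -3.54, *Foxn1* at -2.74, *Lef1* at -2.68, *Shh* at -2.36 and *Dlx3* at -2.16, and with a pseudocount of 1 *Hoxc13* was at -3.52, *Foxn1* at -2.69 and *Lef1* at -2.23, with *Shh* 2-fold lower. A pseudocount of 0.01 put *Shh* at -4.92. *Foxn1* was at -2.98 without replicate 3 of the wild type at 10 weeks and at -4.38 without replicate 2. *Msx1* was at -0.27, or 0.12 with median-of-ratios scaling, and *Gata3* at 0.26, and neither was called. *Gata3* ran from 32.4 to 36.3 FPKM at 2 weeks and from 36.4 to 48.9 at 10 weeks. In the same contrast 16 of 16 hair shaft genes, 45 of 46 *Krtap* genes and 8 of 8 inner root sheath genes were called lower, with medians of -7.98, -6.99 and -8.56. Of these lists 10, 28 and 2 genes reached the filter only through the wild type at 2 weeks, the group in which they are high. In the Hedgehog list 10 of 13 genes were called lower (median -1.82), in the Wnt list 8 of 15 (median -1.59) and in the BMP list 5 of 22 (median -0.71), with 0 called higher in each.

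Within the cKO-labelled mice 0 of the 10 regulators were called between ages by limma, 0 had an unadjusted p under 0.05, and 3.54% of all genes were called, 2.01% higher and 1.53% lower. The groups overlapped for all 10 regulators, where 14.5% of all genes did not. The interval was narrowest for *Ovol1* (log2 FC -0.07, 95% interval -0.54 to 0.41) and widest for *Foxn1* (0.54, 95% interval -0.84 to 1.92), with *Hoxc13* at -0.35 (95% interval -0.89 to 0.20), *Lef1* at 0.25 (95% interval -0.46 to 0.97) and *Gata3* at -0.12 (95% interval -0.84 to 0.60). The wild type at 2 weeks entered both the genotype comparison at that age and the age comparison in the wild type, so these are not independent. Side by side, the log2 FC of the first and of the second was -3.12 and -1.66 for *Msx2*, -0.08 and -1.31 for *Ovol1* and -1.38 and 0.26 for *Gata3*.

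Over the 15 mice, the genes most like each regulator by Pearson's r of log2(FPKM + 0.1) were named among 13927 expressed genes. These r are a description, since for most regulators the mice form separate clusters and the wild type at 2 weeks stands apart from the rest. *Hoxc13* was closest to *Fhod3* (r = 0.987), *Krtap4-8* (0.987) and *Lhx2* (0.981), and *Shh* to *Krtap31-2* (0.978), *Slc5a5* (0.977) and *Lhx2* (0.972). *Lef1* was closest to *Zfhx2* (0.984), *Gli2* (0.981) and *Col6a6* (0.981), and *Foxn1* to *Trp53inp2* (0.981), *Frmd4a* (0.978) and *Grb7* (0.977). *Dlx3* was closest to *E2f3* (0.982), *Igsf9* (0.981) and *Cdh24* (0.980), *Msx2* to *Fam101b* (0.971), *Zcchc3* (0.970) and *Golga7b* (0.968), and *Bmp4* to *Odz2* (0.956), *Gpr173* (0.945) and *Fgf10* (0.942). The regulators with another order of groups had other neighbours. *Gata3* was closest to *Exoc8* (0.962), *Tcf7l2* (0.945) and *Wdr77* (0.939), *Ovol1* to *Peli1* (0.945), *Cwh43* (0.945) and *Casp14* (0.940), and *Msx1* to *Dact3* (0.964), *Trip6* (0.950) and *Kdelr1* (0.947).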

How the data were processed

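RNA-Seq was measured in mouse ear samples of 4 groups, 15 libraries in all. Libraries were read from 1 end for 50 bases, and the submitters' processing notes name TopHat2 2.1.0, Cufflinks (with no version) and the build mm9. The authors deposited FPKM, already normalized for gene length and mapped reads, and these were taken unchanged. The study tested counts; these were not used here, and wild type mice beyond the 4 and 3 used were not analysed here. Groups were taken from the labels. log2(FPKM + 0.1) was fitted with limma 3.58.1 (R 4.3.3, trend in the prior variance) on genes that reached an FPKM of 1 in 3 or more libraries of the fit, per age for genotype and over all 4 groups for age and interaction. p-values were 2-sided and adjusted over all genes (Benjamini-Hochberg); a gene was called at an adjusted p under 0.01 and a log2 FC of at least 1 in size. All fold changes are on that scale, which understates the change of low genes. Genes below the filter were tested with exact permutation tests (scipy 1.17.1). The p-values set a difference between groups against the spread between the samples of a group.

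All 10 regulators are named. From each other list the 2 genes with the highest and the 2 with the lowest log2 FC were named per genotype comparison, and for each regulator the 3 genes with the highest r; genes outside these were named after their values were seen. The values of 1 gene that this rule names are not reported here. The lists were hair shaft, *Krtap*, inner root sheath, Hedgehog, BMP, Wnt, paralog, proliferation, interfollicular epidermis, outer root sheath and bulge, dermal papilla, T cell, melanocyte, fibroblast and skeletal muscle genes. The regulators and lists were chosen with earlier results of these data known. Gene positions are from the GENCODE annotation of mm9. Alternatives were other pseudocounts (0.01 and 1), no filter or a stricter one, median-of-ratios and quantile scaling, a constant prior variance, a replicate block, other groupings of the fit, each mouse left out, and, added after the data were seen, removal of a length and GC trend. The scripts were tested on simulated data.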

Additional observations from a re-analysis of the deposited data

Results flagged for a closer look

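In 30 sets of 4 mice (a regulator in a group), each tested for a mouse far from the others by Dixon's test, 2 had such a mouse, where chance gives about 1 in 20. *Dlx3* had an FPKM of 1.68 in replicate 1 of the cKO-labelled mice at 2 weeks, against 5.33 to 5.68 in the other 3. *Bmp4* had an FPKM of 11.1 in replicate 3 of the wild type at 2 weeks, against 13.3 to 13.7.

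The genotype difference differed between 2 and 10 weeks for 8 regulators by the limma interaction test. The log2 FC at 10 weeks exceeded that at 2 weeks by 3.88 for *Hoxc13*, 4.28 for *Foxn1*, 2.1 for *Msx2*, 3.16 for *Dlx3*, 3.83 for *Lef1*, 3.10 for *Shh*, 2.23 for *Bmp4* and 1.25 for *Ovol1*.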

How the results depend on the processing

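At 2 weeks the number of regulators called between genotypes was 7, with 5 to 8 over 10 other settings (8 where *Gata3* was added) and 4 to 8 with a mouse left out. At 10 weeks it was 1, and 2 with a stricter filter, a replicate block or all 4 groups in 1 fit (*Ovol1* added) or with quantile normalization (*Msx2* added); with a mouse left out it was 0 (without replicate 3 of the wild type) to 2. The interaction gave 8 calls, 6 to 8 over other settings and 5 to 8 with a mouse left out. Over all genes 1951 were called at 2 weeks, 751 with a replicate block and 3300 with all 4 groups in 1 fit; 1957 at 10 weeks and 1279 with the length and GC trend removed; between ages in the wild type 3559 and 2297 with that trend removed; and between ages in the cKO-labelled mice 493, or 146 with only the groups compared. The age contrast gave 8 in the wild type (7 to 8) and 0 in the cKO-labelled mice under every setting run. The replicate block gave 5 calls at 2 weeks (*Foxn1* and *Bmp4* lost), 2 at 10 weeks, 7 for the interaction and 8 and 0 for age. Same-numbered mice of the 2 genotypes did not deviate together (r -0.06 to 0.06 at 2 weeks, -0.20 to 0.04 at 10 weeks). These r do not tell whether such mice were littermates or were collected together. The log2 FC turned its sign under other settings only in uncalled results. With the length and GC trend removed it was 0.15 for *Msx1* and 0.61 for *Ovol1* between genotypes at 2 weeks, -0.14 for *Msx1* in the interaction, 0.25 for *Msx1* between ages in the wild type, and -0.16 each for *Dlx3* and *Shh* between ages in the cKO-labelled mice. With quantile normalization *Ovol1* was at 0.02 at 2 weeks, *Msx1* at 0.17 between ages in the wild type, and *Dlx3* at -0.05 and *Shh* at -0.04 between ages in the cKO-labelled mice. With median-of-ratios scaling *Ovol1* was at 0.13 at 2 weeks and *Msx1* at 0.12 between ages in the wild type. Leaving out a mouse turned the sign in 17 further cases, all uncalled: at 10 weeks *Hoxc13* ran from -0.17 to 0.03, *Msx1* from -0.15 to 0.12 and *Dlx3* from -0.55 to 0.02, and between ages in the cKO-labelled mice *Foxn1* from -0.09 to 0.95, *Msx1* from -0.01 to 0.74, *Dlx3* from -0.24 to 0.33, *Lef1* from -0.11 to 0.52, *Shh* from -0.05 to 0.07, *Ovol1* from -0.21 to 0.11 and *Gata3* from -0.40 to 0.16. The causes were not tested. The read depth is unknown, so the smallest difference that could be seen for *Shh*, near 0 in 3 groups, is unknown as well.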
